A study of Mus musculus with 68 samples.

Results

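The genes described here are the 10 glycolytic isozyme genes from hexokinase to enolase that dopamine neurons could use, out of the 36172 genes of the deposited table: Hk1 and Hk2 (hexokinase), Gpi1 (glucose-6-phosphate isomerase), Pfkl, Pfkm and Pfkp (phosphofructokinase), Aldoa and Aldoc (aldolase), and Eno1 and Eno2 (enolase). They were found by gene symbol, and each had 1 row in the table. In Patch-seq, the contents of a neuron are drawn into the recording pipette after the electrical recording, and the RNA of that 1 cell is sequenced. Here 68 dopamine neurons of the ventral tegmental area (VTA), a midbrain nucleus, were analysed, 33 of them 3xTg and 35 WT, and all mice were 12 months of age. The 3xTg mice were homozygous for humanized transgenes that include APP Swe and Tau P301L, and model the amyloid and tau of Alzheimer's disease. The WT mice carried none of them and came from a separate line kept in parallel on the same mixed background of C57BL/6, 129×1/SvJ and 129S1/Sv. Males and females were pooled, and no label ties a cell to a mouse. Each genotype was therefore treated as 1 sample, no test between genotypes is given, and an SD is across cells, not animals. The genes were chosen by name, with the genotype difference of the mean log2 counts of a wider glycolysis list in these cells already known, and Hk1, Gpi1, Pfkm and Eno1 are among the genes the study called changed on the same cells. Their differences between genotypes are thus a description and no independent evidence of direction.

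Glycolysis splits glucose into pyruvate in the cytosol and yields ATP without oxygen. Hexokinase traps glucose as glucose-6-phosphate, the isomerase turns this into fructose-6-phosphate, phosphofructokinase commits the sugar to glycolysis, aldolase splits it into smaller sugars, and enolase makes phosphoenolpyruvate near the end. Most of these steps have several genes, expressed in different tissues, with Hk1 the main hexokinase of brain, Aldoc best known from astrocytes and some neurons, and Eno2 the neuron-specific enolase.

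The deposited values were estimated read counts per gene. Totals ranged from 676556 to 1678624 counts per 3xTg cell (median 1194457) and from 492505 to 1327367 per WT cell (median 982390), and a median of 8511 and 7476 genes per cell had at least 1 count. A normalized count is a count divided by the cell's size factor, and a mean difference is the 3xTg mean of log2(normalized count + 1) less the WT mean, each taken across cells. CPM is counts per 1000000 counts. The numbers in the cells' labels fall into 5 runs of a single genotype, WT 1 to 22 (17 cells), 3xTg 24 to 55 (21 cells), WT 57 to 74 (15 cells), 3xTg 76 to 92 (12 cells) and WT 94 to 96 (3 cells). What the numbers mark is not stated in the sources used here. The first runs of each genotype (3xTg 24 to 55, WT 1 to 22) and the second runs (3xTg 76 to 92, WT 57 to 74) were also compared on their own. Cells 3xTg 76 to 92 stood apart: they had the most genes with a count (median 9308, against 5233 in WT 1 to 22, 7648 in 3xTg 24 to 55 and 8441 in WT 57 to 74) and, of the 4 runs of 12 or more cells, the narrowest spread of all 10 genes and of 74.2% of the 3988 expressed genes. All 4 dopamine neuron markers, Th, Slc6a3, Slc18a2 and Ddc, had counts in both genotypes, with a summed level of 6681 to 33261 CPM per 3xTg cell and 4635 to 25803 per WT cell. Summed markers of other cells reached at most 4211 CPM in 3xTg and 2869 in WT for microglia (6 markers), 583 and 2540 for oligodendrocytes (5 markers), 168 and 267 for GABA neurons (4 markers), 119 and 761 for glutamate neurons (2 markers) and 1.36 and 0.943 for endothelial cells (4 markers). The study kept cells negative for Pvalb, Tmem119, P2ry12 and Aldh1l1, but in the deposited counts 5 cells of each genotype had a count of at least 1 of these 4 genes.

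Isozymes can be told apart by reads only where their sequences differ, so the stretches below show what the aldolase and enolase values rest on. Each is the 90-base stretch of coding sequence, in frame and without gaps, where the 2 isozymes differ most. It is shown 5′ to 3′ on the coding strand, with the bases that differ between the pair in capitals, from the GENCODE vM21 transcripts on GRCm38 (mm10, the build of the files). The length of 90 bases is that of a 100-base read after trimming 5 bases from each end.
Aldoa: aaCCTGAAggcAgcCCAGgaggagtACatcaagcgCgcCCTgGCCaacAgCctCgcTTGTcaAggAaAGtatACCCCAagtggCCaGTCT
Aldoc: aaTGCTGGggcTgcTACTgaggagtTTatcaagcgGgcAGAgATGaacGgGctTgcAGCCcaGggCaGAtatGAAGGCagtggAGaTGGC
Eno1: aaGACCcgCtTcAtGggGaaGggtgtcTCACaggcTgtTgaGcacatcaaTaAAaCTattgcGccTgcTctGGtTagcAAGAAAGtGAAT
Eno2: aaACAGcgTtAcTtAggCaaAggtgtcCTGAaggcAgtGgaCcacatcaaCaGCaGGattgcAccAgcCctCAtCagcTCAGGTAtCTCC
The Aldoa stretch is coding bases 1120 to 1209, in 2 exons within chr7:126795467-126795654 (minus strand), and the Aldoc stretch is coding bases 958 to 1047, in 2 exons within chr11:78326093-78326309 (plus strand), with 43 differences. The Eno1 stretch is coding bases 160 to 249, in 3 exons within chr4:150241119-150244013 (plus strand), and the Eno2 stretch is the same coding bases, in 3 exons within chr6:124767094-124767722 (minus strand), with 39 differences. Over their whole coding sequences, gaps included, Aldoa and Aldoc were 65.7% identical and Eno1 and Eno2 75.1%. These values are not like for like. Aldoa has 1257 coding bases and Aldoc 1092, so Aldoa bases without a partner count as differences, while both enolases have 1305. No 90-base window of either pair, nor of the phosphofructokinase pairs (66.1% to 69.1% identical), reached the 90% identity that the study's alignment required. For Hk1 against Hk2 (68.5% identical) 2 of 2749 windows did. The isozymes of a step are thus well separated at this read length, within the coding sequence.

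Retrocopies of Eno1 and Aldoa are not. The table also counts Gm5506, which GENCODE names Eno1b, a copy of Eno1 without introns. Its coding sequence differs from that of Eno1 at 8 of 1305 bases, and 70.3% of 90-base windows of Eno1 are identical in it. Aldoa has a pair of such copies, Aldoart1 and Aldoart2, with 93.7% and 79.8% of coding alignment columns identical, gaps included. Of the Aldoa windows, 92.5% and 64.8% reach 90% identity in them. The Aldoart2 coding sequence has 1095 bases against 1257 in Aldoa. Aldoa bases without a partner thus count as differences in both Aldoart2 values. Counts of Eno1 and Aldoa that depend on these copies are uncertain to the extent given with the enolase results.

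The genes differed widely in how many cells had a count of them. Gpi1, Aldoa and Eno1 had counts in all 33 3xTg cells (100%, exact Clopper-Pearson interval 89.4% to 100%) and all 35 WT cells (interval 90% to 100%). Eno2 was counted in 32 and 31 cells, Pfkp in 31 and 33, Pfkl in 30 and 29, and Aldoc in 28 and 29. Hk1 had counts in 28 3xTg cells, which is 84.8% with an interval of 68.1% to 94.9%. In WT it had counts in 19 cells, or 54.3%, with an interval of 36.6% to 71.2%. For Pfkm the shares were 93.9% of 3xTg cells (31 cells, 79.8% to 99.3%) and 77.1% of WT cells (27 cells, 59.9% to 89.6%). Hk2 was the rarest, found in 6.06% of 3xTg cells (2 cells, 0.743% to 20.2%) and 17.1% of WT cells (6 cells, 6.56% to 33.6%). These intervals take the cells as independent, although they come from an unstated number of mice. At an equal depth of 700471 counts per cell (2 3xTg and 5 WT cells were shallower and dropped), the shares for Hk1 became 83.9% and 56.7%, and those for Pfkm 93.5% and 73.3%.

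**Figure D1:**
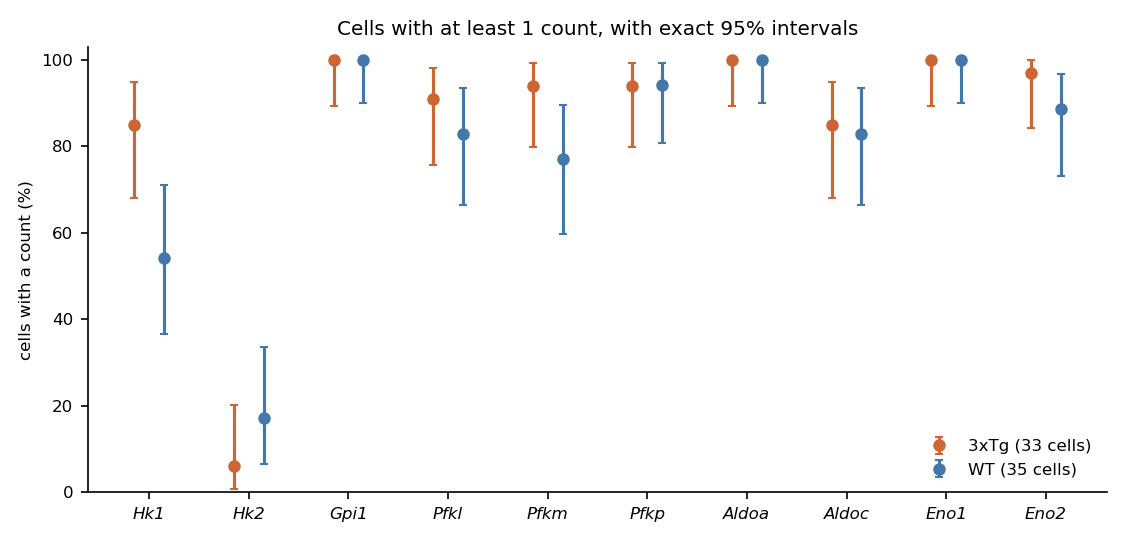
Percent of cells with at least 1 count of each gene (y axis) in 33 3xTg cells (orange) and 35 WT cells (blue); bars are exact 95% Clopper-Pearson intervals that take the cells as independent. Gpi1, Aldoa and Eno1 stand at 100% in both genotypes, Hk2 at 6.06% and 17.1%, and Hk1 at 84.8% in 3xTg and 54.3% in WT.

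A cell had a median of 9 of the 10 genes in 3xTg (range 5 to 10) and 8 in WT (range 5 to 10). All 9 genes other than Hk2 were counted in 21 of 33 3xTg cells and 12 of 35 WT cells. Cells without Hk1, Pfkl, Pfkm, Pfkp or Eno2 also had fewer genes with a count, in each genotype. The 21 cells without Hk1 had a median of 5390 genes, against 8478 in the 47 cells with it, and the 10 cells without Pfkm had 5091 against 8170 in the 58 with it. For Aldoc the medians were 8511 without and 8296 with it in 3xTg, and 5312 and 7929 in WT. The part of RNA yield in the absence of these genes was not tested.

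Levels per length spread over more than 3 orders of magnitude. Over all cells, counts summed as CPM per kilobase of transcript were 1917 for Aldoa, 897 for Eno1, 238 for Gpi1, 129 for Eno2, 97.9 for Aldoc, 93.8 for Pfkp, 88.6 for Pfkm, 43.6 for Pfkl, 24.9 for Hk1 and 0.762 for Hk2. Aldoc, Pfkp and Pfkm lay close together, and the spread across cells (SD of log2 normalized counts 3.30, 2.65 and 3.33) was far larger than their distance, so these 3 are not ordered. The first enzyme of the pathway, hexokinase, thus had the fewest transcripts of any step and aldolase the most. The order of Aldoa, Eno1 and Gpi1 above the other 7 genes was the same in 3xTg and in WT sums.

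Hexokinase was nearly all Hk1, the isozyme that docks on mitochondria in brain. Normalized counts of Hk1 in 3xTg had a lowest value of 0, a median of 86.6 and a highest of 558, and in WT 0, 2.65 and 428. The genotypes overlapped over almost the whole range. Mean log2 levels of 5.63 ± 2.90 (SD, 3xTg) and 3.12 ± 3.24 (WT) gave a mean difference of 2.51. When cells at 0 were set aside it was 0.88, and the log2 ratio of summed counts was 0.89 (123 CPM, exact Poisson interval 120 to 127, against 66.4 CPM, interval 63.7 to 69.2). Such intervals of sums cover counting error only, since the reads were amplified and no molecular identifiers are stated. Most of the mean difference thus lay in how many cells had a count. Run by run, Hk1 was counted in 10 of 17 cells of WT 1 to 22, 18 of 21 of 3xTg 24 to 55, 9 of 15 of WT 57 to 74, 10 of 12 of 3xTg 76 to 92 and none of 3 of WT 94 to 96. The share of cells was higher in 3xTg in both pairs of runs, but the ratio of sums was 1.05 in the first runs and 0.30 in the second. One cell, WT 14, held 24.1% of all WT counts of Hk1 and 45.8% of those in WT 1 to 22, and without it the ratio in the first runs was 1.85. The ratio in the second runs lay between 0.15 and 0.61 when any 1 cell was left out.

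Hk2, the insulin-responsive isozyme of muscle and fat, was sparse. It had 11 counts summed over 3xTg, of which 90.2% were in cell 3xTg 30, and 286 over WT, of which 73.7% were in cell WT 7. Cells WT 7 (267 normalized counts of Hk2) and WT 16 (87.99) had no Hk1, and they were the 2 cells of 44 with at least 10 hexokinase counts in which Hk2 led. Within a cell, Hk1 made up 99.8% ± 0.889 of hexokinase counts in 26 3xTg cells and 88.1% ± 32.1 in 18 WT cells. Without WT 7 or without WT 16 the difference of 11.7 percentage points was 6.47, and without WT 1 to 22, the run that holds both, it was 0.257. In the second runs it was 0.493. WT 7 also had 277 counts of P2ry12, a microglia marker, and the second highest summed level of 6 microglia markers among WT cells (2793 CPM), while WT 16 had 2.18 CPM, rank 31 of 35. The share of WT 7's Hk2 that came from another cell was not tested. Hk3, another hexokinase, was counted in 3 3xTg and 2 WT cells. Of its 442 counts in 3xTg, 98.5% were in cell 3xTg 43 (517 normalized counts), which had no Hk1 or Hk2 and had 225 counts of P2ry12. Other cells with P2ry12, such as WT 8 (106 counts), WT 69 (78 counts) and 3xTg 40 (122.5 counts), had Hk1 and no Hk2, and WT 11, with the highest microglia marker level of WT cells, had neither. The part of microglia RNA was not tested.

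Gpi1, the single gene of the isomerase step, was counted in every cell. In 3xTg cells it spanned 91.8 to 2012 normalized counts around a median of 738, and in WT cells 12.9 to 2331 around 515. The genotypes overlapped, and the lowest values were in WT cells. The mean difference was 0.83 (9.34 ± 1.07 against 8.51 ± 1.57), and the log2 ratio of sums was 0.47 (791 against 572 CPM). Both pairs of runs gave ratios of the same sign, 0.40 in the first and 0.63 in the second. Without 3xTg 76 to 92 the ratio was 0.26, short of the limit for a call given further on (0.32).

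Phosphofructokinase was the step at which several isozymes shared the counts. All 3 genes had a count in 51 of 68 cells, 2 in 12 cells, 1 in 4 cells and none in 1 cell, WT 7. Pfkp, the platelet isozyme that is also abundant in brain, led in 43 of the 65 cells with at least 10 counts at the step, Pfkm, the muscle isozyme, in 12, and Pfkl, the liver isozyme, in 10. Averaged within cells, the shares in 3xTg were 44.8% ± 20.8 for Pfkp, 32.7% ± 16.98 for Pfkm and 22.5% ± 22.9 for Pfkl. In WT they were 55.02% ± 26.8, 24.1% ± 22.3 and 20.9% ± 25.8. The SDs are as large as the differences. Single cells could rest almost wholly on 1 isozyme: Pfkm made up 99.3% in WT 9, Pfkl 99.7% at most and Pfkp up to 100% in both genotypes. In 3xTg 76 to 92 no cell did, with Pfkp between 35.8% and 58.1% in all 12.

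Divided by transcript length, the balance was more even. Over all cells, Pfkp then made up 41.5% of phosphofructokinase, Pfkm 39.2% and Pfkl 19.3%. In 3xTg, Pfkm was the largest (44.4%, against 37.6% for Pfkp), and in WT Pfkp was (46.8%, against 32.1% for Pfkm). Divided by coding length, which is nearly equal for the 3 genes, Pfkp stayed ahead in 3xTg (44.3% against 36.6%). The leader in 3xTg therefore depends on the length used.

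Pfkm had the widest difference between genotypes of the 3 genes. Its normalized counts were 0 to 2245 in 3xTg (median 283) and 0 to 1166 in WT (median 78.3). The mean difference was 2.07 (7.12 ± 2.89 against 5.05 ± 3.46), 1.03 among cells with a count, and the ratio of sums 0.79 (320 against 185 CPM). Both pairs of runs were higher in 3xTg by sums, 0.91 and 0.69. Without WT 9 the first was 1.48, and without WT 57 the second was 1.11. The WT runs also differed from each other: Pfkm was counted in 10 of 17 cells of WT 1 to 22 and in 14 of 15 of WT 57 to 74, and the mean of log2 values was 2.11 higher in the second of these runs. Without WT 1 to 22 the mean difference was 1.06, without 3xTg 76 to 92 it was 1.37.

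Pfkp did not differ in sums (389 CPM, interval 383 to 396, against 388 CPM, interval 382 to 395). Its mean difference was 0.51 over all cells, −0.02 in the first runs and 1.45 in the second. Its ratio had opposite signs in the 2 pairs of runs, −0.38 in the first and 0.36 in the second. Without WT 6 the first was −0.06. Pfkl had 168 against 157 CPM, a log2 ratio of 0.10, with −0.18 in the first runs and 0.20 in the second. The first value was 0.06 without WT 10 and 0.09 without WT 5, so its sign rests on single cells. Its mean difference of 1.42 was 0.68 after thinning. In WT 94 to 96, Pfkl was near absent, with 0, 2.11 and 10.8 normalized counts in the 3 cells.

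**Figure D2:**
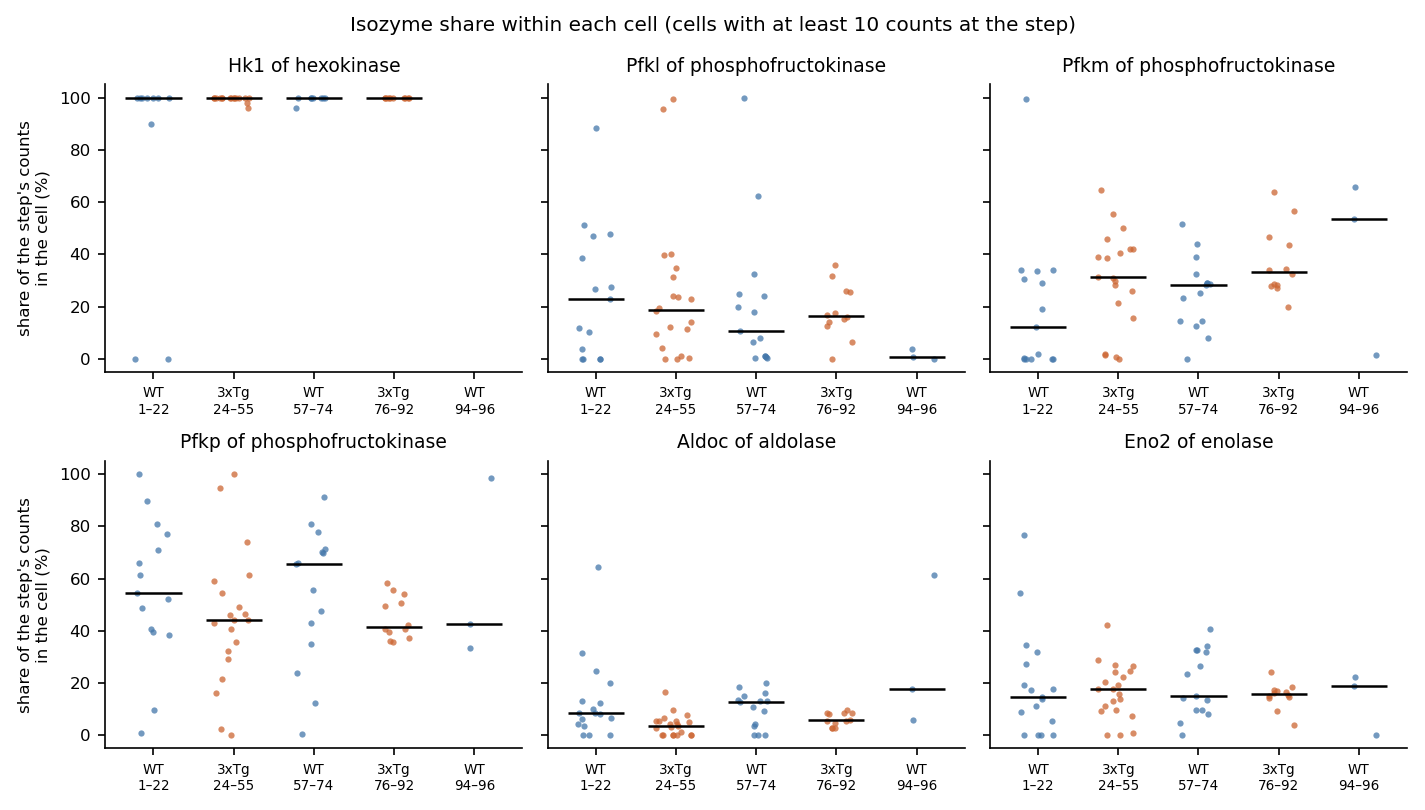
Share of a step's counts from the named isozyme in each cell (y axis, percent) by run of label numbers (x axis; WT blue, 3xTg orange, line at the median), for cells with at least 10 counts at the step. Hk1 sits above 90% save in cells WT 7 and WT 16 (both at 0%) and WT 10 (89.9%), phosphofructokinase shares span almost the whole scale, and Aldoc has medians of 8.45% and 12.7% in the larger WT runs against 3.54% and 5.66% in the 3xTg runs.

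Aldolase was mostly Aldoa, the isozyme of muscle and most tissues, in 66 of 68 cells. Its normalized counts were 244 to 6328 in 3xTg (median 3297) and 144 to 7276 in WT (median 1737). The mean difference was 0.72 (mean log2 levels of 11.50 and 10.78) and the log2 ratio of sums 0.52 (3480 against 2420 CPM). By runs the ratio was 0.31 in the first and 0.75 in the second, and the first lies just under the limit for a call. Aldoart1 and Aldoart2 made up a median of 0.882% and 1.07% of their joint counts with Aldoa, and adding them left the mean difference at 0.72.

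Aldoc went the other way. Its normalized counts were 0 to 1222 in 3xTg (median 165) and 0 to 1799 in WT (median 170), so the medians were almost equal and the higher values were in WT. The log2 ratio of sums was −0.71 (209 CPM, interval 204 to 214, against 342 CPM, interval 335 to 348). The mean difference was −0.45 over all cells, −1.49 in the first runs and 1.67 in the second. It was −0.26 without any 1 of 3xTg 30, 31, 40, 43 and 45, −0.30 without 3xTg 42, and −0.20 after thinning. In the second runs all 12 3xTg cells had Aldoc while 3 of 15 WT cells had none. In sums, the ratio was −0.99 in the first runs and −0.14 in the second, where it was 0.11 without WT 57 and 0.03 without WT 73.

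As a share of aldolase within the cell, which does not depend on size factors, Aldoc was lower in 3xTg in both pairs of runs. It was 4.68% ± 3.71 in 33 3xTg cells (lowest 0%, median 4.61%, highest 16.4%) and 13.04% ± 14.5 in 35 WT cells (lowest 0%, median 10.2%, highest 64.3%). Run means were 13.02% in WT 1 to 22, 3.88% in 3xTg 24 to 55, 9.998% in WT 57 to 74, 6.07% in 3xTg 76 to 92 and 28.3% in WT 94 to 96. The ranges overlapped, and no 3xTg cell was above 16.4%. Aldoc led in 2 cells, WT 11 (64.3%) and WT 96 (61.4%). The difference of −8.36 percentage points was −9.13 in the first runs and −3.93 in the second, and lay between −8.74 and −6.85 when any 1 cell was left out. Over transcript length, Aldoc was 3.23% of aldolase in 3xTg and 7.28% in WT sums, and over coding length 6.47% and 13.98%.

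Since Aldoc is abundant in astrocytes, their markers stand beside it. Of 8 astrocyte markers 7 had a count in each genotype and Aldh1l1 was at 0 in all cells. Their summed level was 18.5 to 927 CPM in 3xTg (median 230) and 7.88 to 2684 CPM in WT (median 264). These medians rest largely on Slc1a2, a glutamate transporter counted in all 68 cells, with 235 CPM summed over 3xTg and 232 over WT. Of the other markers with counts, Slc1a3, Gja1, Kcnj10 and S100b were higher in WT, as Aldoc was, Gfap was higher in 3xTg (1.525 against 0.911 CPM, counted in 1 3xTg and 2 WT cells), and Aqp4 had 1 and 4 counts in all. Slc1a3 had 11.7 against 130 CPM (73.2 without WT 5), Gja1 0.708 against 32.5 (94.8% of it in WT 73), Kcnj10 7.71 against 16.9 and S100b 16.02 against 23.2. Slc1a3, Kcnj10 and S100b were higher in WT in both pairs of runs. In the second runs 79.2% of the WT counts of Slc1a3 were in WT 73, and without that cell the levels were 1.52 CPM in 3xTg and 18.3 CPM in WT. The part of these markers in the Aldoc difference was not tested. Across cells of a genotype, which share libraries of unequal depth, Spearman's rho between this level and the Aldoc share was −0.06 in 3xTg (33 cells) and 0.34 in WT (35 cells). WT cells at or below their median marker level had a median Aldoc share of 8.57% (18 cells), and those above it 13.1% (17 cells). In 3xTg the shares were 5.30% at or below the median (17 cells) and 2.95% above it (16 cells). In the cells led by Aldoc, the marker level was 1066 CPM in WT 11, rank 4 of 35, and 38.1 CPM in WT 96, rank 32. WT 11 also had the highest summed level of microglia (2869 CPM) and oligodendrocyte markers (2540 CPM) among WT cells.

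Enolase was mostly Eno1, the isozyme of most tissues, in 66 of 68 cells, although these are neurons and Eno2 is the neuron-specific gene. Eno1 had 142 to 4248 normalized counts in 3xTg (median 2647) and 61.5 to 4434 in WT (median 1302). The mean difference was 0.90 (10.84 ± 1.16 against 9.94 ± 1.37) and the ratio of sums 0.66 (2206 against 1397 CPM). Eno2 had 0 to 2101 normalized counts in 3xTg (median 384) and 0 to 725 in WT (median 217). Its mean difference was 1.24 (7.88 ± 2.44 against 6.64 ± 2.95), 0.63 among cells with a count, and the ratio of sums 0.68 (439 against 273 CPM). By runs the ratio of Eno2 was 0.69 in the first and 0.80 in the second.

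In summed counts the enolase balance was nearly the same in both genotypes. Eno2 was 16.6% of the summed enolase counts in 3xTg (interval 16.4% to 16.8%) and 16.4% in WT (interval 16.1% to 16.7%). Within cells it was 16.2% ± 8.84 in 3xTg (0% to 42.2%) and 19.2% ± 16.7 in WT (0% to 76.8%). Over transcript length Eno2 was 12.6% in 3xTg sums and 12.4% in WT. The 2 cells led by Eno2 were WT 2 (76.8%) and WT 7 (54.5%). Without WT 2 the difference of within-cell means, −3.04 percentage points, was −1.35.

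The copy of Eno1 set 1 run of cells apart. Gm5506 took 8.63% to 30.5% of the joint counts of Eno1 and Gm5506 in the 17 cells of WT 1 to 22 (median 19.7%). In the other 51 cells it took 1.24% to 4.65%, save for WT 74 with 11.9%. The run medians elsewhere were 2.24% in 3xTg 24 to 55, 2.24% in WT 57 to 74, 2.07% in 3xTg 76 to 92 and 1.79% in WT 94 to 96. Thus the cells of WT 1 to 22 differed from other WT cells as much as from 3xTg cells, and the other WT runs lay with the 3xTg runs. This run is the WT side of the first pair of runs. With Gm5506 added to Eno1, the log2 ratio of sums in the first runs was 0.29 in place of 0.56, and so under the limit for a call, while in the second runs it remained 0.86. Over all cells it was 0.52 in place of 0.66. The copies of Aldoa showed no such split, with run medians of 0.673% to 0.997% for Aldoart1 and 0.717% to 1.08% for Aldoart2. Of the counts above 0, those of Eno1 were not whole numbers in all 68 cells (tolerance 0.001).

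**Figure D3:**
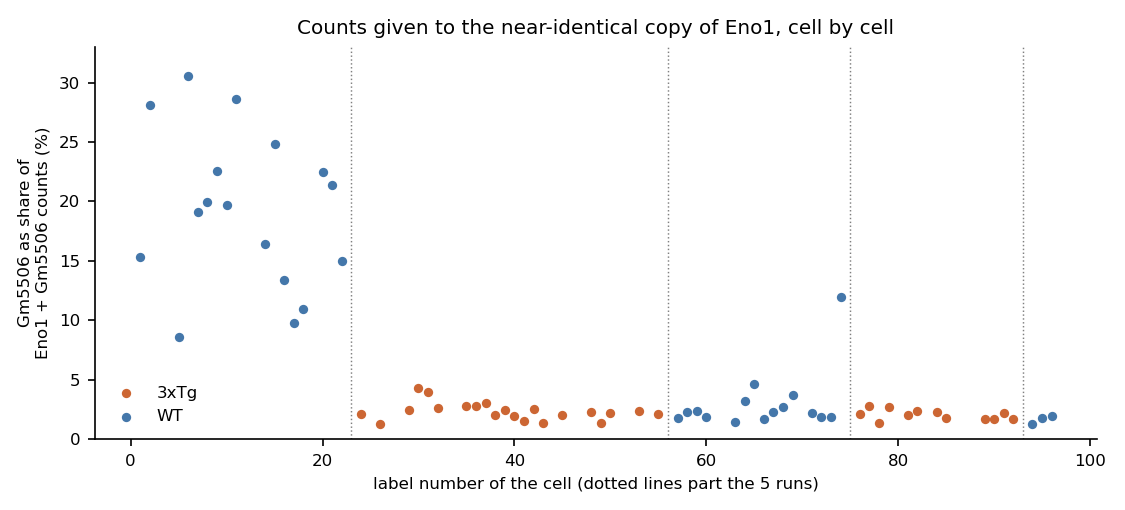
Counts of Gm5506, the near-identical copy of Eno1, as percent of Eno1 and Gm5506 counts together (y axis) in each of 68 cells, by label number (x axis; WT blue, 3xTg orange; dotted lines part the runs). The 17 cells of WT 1 to 22 lie between 8.63% and 30.5%, and all others at 4.65% or less apart from WT 74.

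**Figure D4:**
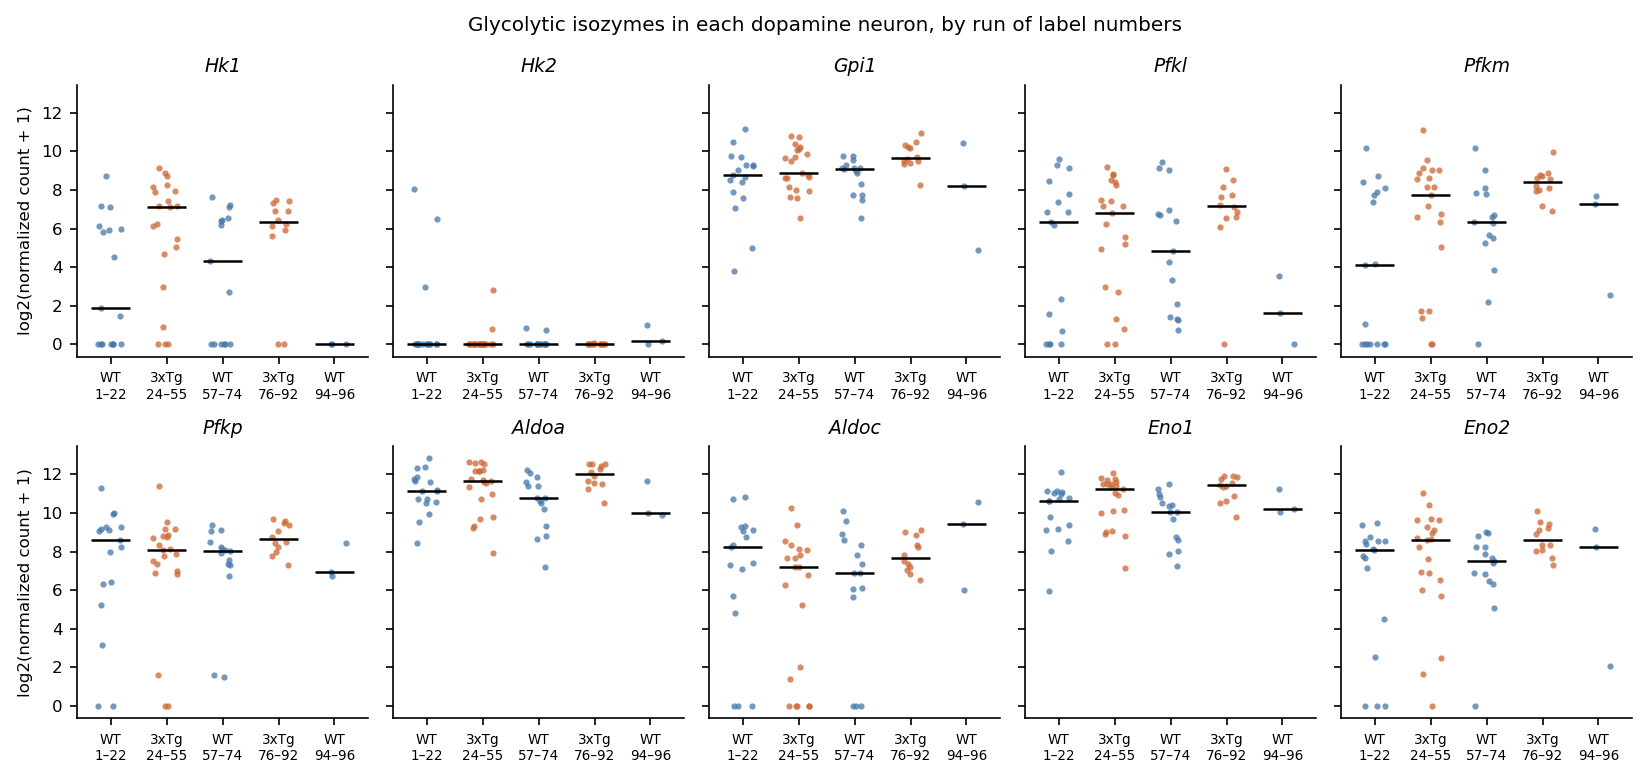
Level of each gene in each cell, as log2(normalized count + 1) (y axis), by run of label numbers (x axis; WT blue, 3xTg orange; line at the median). Gpi1, Aldoa and Eno1 have no cell at 0, Hk2 is at or near 0 in most cells, and of the 4 runs of 12 or more cells the 12 cells of 3xTg 76 to 92 lie closest together.

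Between genotypes, a gene was called expressed where 80% or more of either genotype's cells reached a normalized count of 1, which all but Hk2 did. It was called higher or lower where the log2 ratio of summed CPM passed 0.32, the fold limit of the study. Of the 9 expressed genes, 6 were called higher in 3xTg (Hk1, Gpi1, Pfkm, Aldoa, Eno1 and Eno2), beside 23.2% of all 3988 expressed genes. Hk1 and Pfkm passed the 80% limit only through 3xTg, the genotype where they are high. They had a count in 84.8% and 93.9% of 3xTg cells, against 54.3% and 77.1% of WT cells. Their calls are thus no support for a difference. Aldoc was called lower, beside 27.7% of expressed genes, and Pfkl and Pfkp were neither. Gpi1, Pfkm, Eno1 and Eno2 were called higher in both pairs of runs, beside 10.2% of expressed genes, and 3 of these 4 (not Eno1) were with the copy's counts added to Eno1. Pfkm is in this count only because its 3xTg cells passed the 80% limit. Gpi1 missed the limit in the first runs without WT 9 (0.30), WT 20 (0.32) or 3xTg 39 (0.30). By means over cells 8 of 9 were above 0, beside 70.9% of expressed genes. Dopamine neuron markers were also higher in 3xTg: their summed level had a median of 19532 CPM against 14866, and the log2 ratio of sums was 0.38 for Slc6a3, 0.43 for Slc18a2, 0.32 for Th and 0.21 for Ddc. In the first runs these ratios were 0.04, 0.27, 0.18 and 0.16, and in the second 0.74, 0.57, 0.48 and 0.19. Their part in the differences of the glycolytic genes was not tested. The median mean difference was 0.90 (all expressed genes 0.47) and the median ratio of sums 0.52 (all expressed genes −0.03). It was 0.40 in the first runs (all genes 0.12) and 0.63 in the second (all genes −0.11). In the first runs 5 of 9 were called higher, beside 35.4% of genes, and 2 lower, beside 21.3%; in the second 6 were higher, beside 26.1%, and none lower, beside 40.7%. Several of these calls lay near the limit: leaving out 1 cell could take the ratio of Pfkp to −0.06 in the first runs and 0.25 in the second, or that of Aldoa in the first runs to 0.40, of Hk1 in the second to 0.61 and of Pfkl in the second to 0.59. With TMM factors the expressed genes split into 1239 higher and 843 lower, in place of 927 and 1105, and the same 7 of the 9 genes were past the limit in the same direction. No call over all cells was lost when any 1 of the 68 cells was left out. The counts of 6 higher and 1 lower also held without WT 1 to 22, without WT 94 to 96, and without the 10 cells with a count of another cell type's marker. Without 3xTg 76 to 92 the call of Gpi1 was lost.

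**Figure D5:**
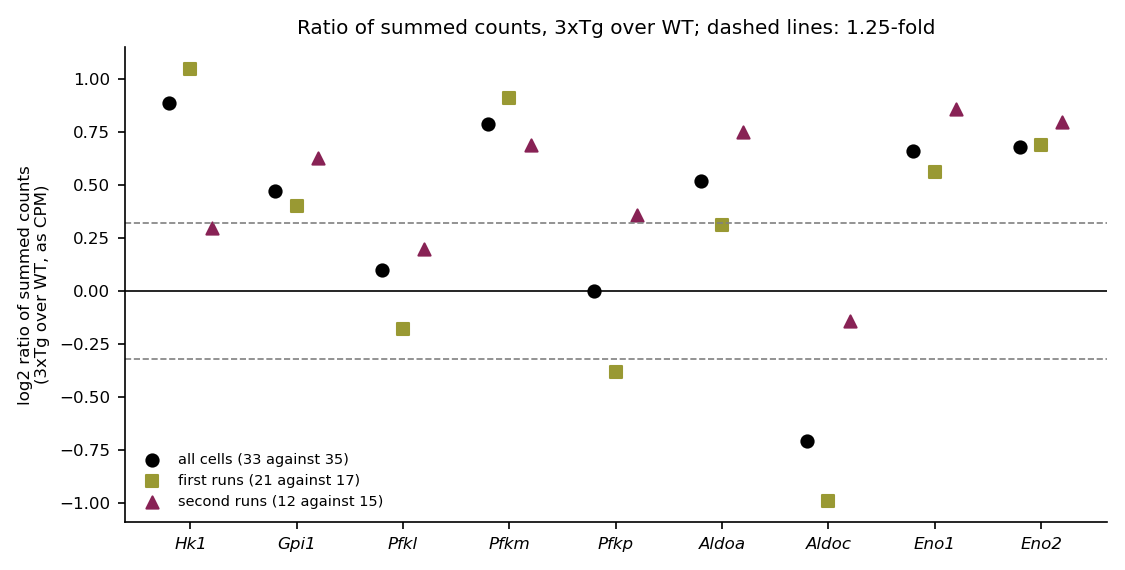
Log2 ratio of summed counts, 3xTg over WT, each as CPM (y axis), of the 9 expressed genes, over all cells (circles), in the first runs (squares) and in the second runs (triangles); dashed lines mark the limit for a call, 0.32 either way. Gpi1, Pfkm, Eno1 and Eno2 lie above the upper line in both pairs, while Pfkl and Pfkp have opposite signs in them (for Pfkl not without WT 5 or WT 10).

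The rest of the pathway gave the setting. Of 7 later enzymes, all expressed, 3 were called higher in 3xTg by sums, beside 23.2% of expressed genes, and none lower, beside 27.7%: Gapdh, which makes the first high-energy phosphate (0.39), Pgk1, which makes ATP from it (0.62), and Pkm, pyruvate kinase (0.46). Tpi1, Pgam1, Ldha and Ldhb had ratios of 0.30, 0.26, 0.28 and 0.12, of which the first 3 could pass the limit when 1 cell was left out (0.38 and 0.32 without WT 20 for Tpi1 and Pgam1, and 0.39 without WT 14 for Ldha). The pairs of runs differed. In the first runs the median ratio of the 7 was −0.03 (all expressed genes 0.12). Pgk1 (0.47) was called higher, beside 35.4% of expressed genes, and Ldha (−0.38, and −0.20 without WT 14) lower, beside 21.3%. In the second runs the median was 0.78 (all expressed genes −0.11), with all 7 called higher (0.63 to 0.92), beside 26.1%. Pgk1 alone was called higher in both, beside 10.2% of expressed genes. Of the genes that make or break fructose-2,6-bisphosphate, the activator of phosphofructokinase, Pfkfb3 was higher (0.86) and Pfkfb2 lower (−1.08), each in both pairs of runs. Of the 3988 expressed genes, 405 were higher and 407 lower in both pairs. The mean difference of Pfkfb2 had the other sign in the first runs (0.44), and was −0.21 over all cells. Without 3xTg 38 the ratio of Pfkfb3 was 0.41, and 0.19 in the first runs, and without WT 21 that of Pfkfb2 in the first runs was −0.07 in place of −0.43, so the first-run calls rest on single cells. The related Pfkfb1 and Pfkfb4 were not expressed. The neuronal glucose transporter Slc2a3 had a ratio of 0.08, with 0.41 in the first runs (0.28 without 3xTg 35) and −0.34 in the second (−0.07 without WT 73), calls that 1 cell ends. Slc2a1 and 3 lactate transporters (Slc16a1, Slc16a3 and Slc16a7) were not expressed by the 80% rule. Of 4 glycogen genes Pgm2 was expressed, with 0.40, and with 0.17 without 3xTg 50, which is no call. Vdac1, the mitochondrial pore on which hexokinase docks, had 0.67 and Vdac2 0.15. Of the isozymes of other tissues, Hk3, Hkdc1, Eno3 and Eno4 were not expressed, although Eno3, the muscle enolase, was counted in 15 3xTg and 12 WT cells.

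Across the 68 cells, the genes with the most similar pattern of log2 normalized counts, among 3264 genes counted in at least 80% of cells, were in part glycolytic. For Aldoa these were Aldoart1 (rho 0.93), whose reads can overlap its own, Gapdh (0.89) and Tuba1c (0.89). For Eno1 they were Aldoa (0.89), Hspa8 (0.87) and Th (0.86). For Gpi1 they were Pkm (0.81), Th (0.77) and Aldoart1 (0.75), and for Pfkp Tpi1 (0.72), Snap47 (0.70) and Psmd1 (0.69). Pfkm was nearest to Tmem130 (0.69), Stmn3 (0.68) and Rnf14 (0.67), and Eno2 to Atp6ap2 (0.70), Akr1a1 (0.69) and Pacsin1 (0.69). For Aldoc they were Ppa1 (0.66), Tuba1b (0.63) and Gm1821 (0.62), and for Pfkl Cend1 (0.55), Tubb3 (0.54) and Rpl29 (0.53). Between isozymes of a step, rho was 0.57 for Aldoa and Aldoc, 0.56 for Eno1 and Eno2, −0.22 for Hk1 and Hk2, and 0.23 to 0.44 for the phosphofructokinase pairs. The cells share genotype, run and depth, so these are descriptions. For Aldoc and Eno2, rho was 0.65 over 3xTg cells but −0.22 over WT cells, and this contrast was not tested.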

How the data were processed

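Members and gene lists were chosen with earlier results of these data known. The authors trimmed 5 bases from both read ends, aligned them to RefSeq transcripts of mm10 (Strand NGS 4.0, 90% identity or more), removed duplicates after 28 PCR cycles, and deposited estimated counts per gene (55.3% of those above 0 were not whole, tolerance 0.001) and log2 values that they normalized with DESeq2 (per the labels and methods) and shifted for each gene by an unstated amount. The log2 values were used as an alternative. Size factors were recalculated from the deposited counts (median of ratios, 787 genes with a count in every cell). For sums, thinning and TMM factors, counts were first rounded. Expressed genes reached a normalized count of 1 in 80% or more of either genotype's cells, and a call needed a log2 ratio of summed CPM past 0.32, the study's fold limit. An isozyme share needed 10 counts of the step in the cell. Totals per cell ranged from 492505 to 1678624, and intervals are at 95%. Those of sums cover counting error only, and those of shares of cells take cells as independent. With 1 sample a genotype no test was made. The study's own tests took cells as replicates and are not used.

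The members, fixed lists of other glycolytic, transport and glycogen genes, cell type markers and the 3 genes nearest to each member by Spearman correlation are named. Some items of these lists and of the genotype are not reported here. Lengths and coding sequences were those of the GENCODE vM21 transcript with a RefSeq match and the longest coding sequence. Runs of label numbers were read from the labels. In all 68 cells, the label number and the number in the column header fit an 8 by 12 grid read by row and by column. No 2 cells had identical counts. Doublets were not called and no cells were clustered. The alternatives were other scalings, pseudocounts (0.1 and 10), thinning, step minimums, cell subsets and leaving out each cell. Copies added, coding length and leaving out a run, the cells without Hk1 or each cell of a pair of runs, and each cell for the other listed genes, were chosen after seeing the data. Calculations were tested on simulated data, in which every gene had the same relative spread and no zeros were added. That test does not cover genes missing from many cells, such as Hk1. Python 3.11.15, numpy 2.4.6, pandas 2.3.3, scipy 1.17.1, Biopython 1.88, matplotlib 3.10.9, R 4.3.3 and edgeR 4.0.16 (TMM) were used.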

Additional observations from a re-analysis of the deposited data

How the results depend on the processing

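No paired analysis was possible, because the genotypes came from separate lines and no label ties a cell to a mouse. Of 171 values of the members' differences under other settings, 126 stayed within 1.5 times of the value given, 43 moved further or changed sign without a call, and 2 reversed, both of Aldoc (1.67 in the second runs, 0.56 without cells lacking Hk1). The median difference of the members was 0.52 in summed counts and 1.67 in the second runs, and 0.81 to 1.02 when a cell was left out. Without a filter on low values 6080 genes were past the fold limit higher and 6973 lower. Differences of isozyme shares, 3xTg minus WT in percentage points, depended on the cells used. The Hk1 share (11.7) gave 17.8 with a step minimum of 1, 20.6 in the first runs, 0.493 in the second, 0.257 without WT 1 to 22, and 6.47 to 12.4 with a cell left out. The Pfkl share (1.56) had no stable sign. It was −2.36 in summed counts, −3.47 after thinning, −0.672 without cells with another marker, −0.00911 in the first runs, −2.48 in the second, −0.381 without WT 94 to 96, and −0.925 to 4.02 with a cell left out. It was 2.86 with a step minimum of 50, 0.762 per transcript length, 5.03 without WT 1 to 22 and 4.16 without 3xTg 76 to 92. The Pfkm share (8.64) was 4.91 without WT 1 to 22. After thinning, the Pfkp share (−10.2) was −5.4 and the Aldoc share (−8.36) −5.09, and the latter was −3.93 in the second runs. The Eno2 share (−3.04) was 0.248 in summed counts, −4.61 in the second runs, −1.86 without cells with another marker and −1.86 with copies added, and −3.85 to −1.35 with a cell left out. The cause was not tested.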
